A study of Rattus norvegicus with 6 samples.

Results

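The interferon-stimulated genes and IRFs described here are the 99 of 56748 rows of the count table whose gene symbol matched a fixed name pattern, among them the Ifit, Ifitm, Oas, Gbp, Irf, Parp and p200 names. RNA was sequenced from 6 samples of primary sensory neurons, taken from the dorsal root ganglion and given as rat (Rattus norvegicus) in the labels. In 3 libraries (EVMu) the neurons had received extracellular vesicles from innervated muscle, and in 3 (EVadMu) vesicles from acutely denervated muscle. No strain, age, vesicle dose or exposure time is given in the sources used here, and no group lacked vesicles, so a lower level in EVadMu and a higher level in EVMu cannot be told apart. Whether replicates are separate cultures is not stated, so p-values measure only how these samples vary, and that variation may be technical.

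Cells sense interferons, the alarm cytokines of viral infection, through paired surface receptors that act by transcription factors of the STAT family together with IRF9. These factors switch on interferon-stimulated genes, whose products detect foreign nucleic acid, degrade RNA, block translation or membrane fusion, and coat intracellular pathogens. Neurons, glia, fibroblasts and macrophages of a sensory ganglion can all carry this programme, and the IRF family both maintains and amplifies it.

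Libraries held between 14853115 and 17019877 counts. The gene identifiers and the stated build, mm39, are mouse while the label is rat, and the species was not tested. Of the 99 symbols, 70 also occur in a rat gene table (GRCr8). All of 16 pan-neuronal markers were detected in both groups, with summed levels of 6650 to 6910 CPM (counts relative to the scaled library total) in EVMu and 4000 to 4120 CPM in EVadMu. Fibroblast markers were detected too, with sums of 7980 to 8030 CPM and 631 to 655 CPM. Schwann and satellite glia markers had sums of 6490 to 6780 CPM and 2510 to 2590 CPM. Detection of neuronal markers therefore does not settle the neuronal label. In bulk RNA, fewer cells of a type and less RNA per cell cannot be told apart.

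Interferon-stimulated genes were lower in the EVadMu libraries across nearly every functional class. Of the 99 rows, 75 passed the filter on low counts, and 65 of these were lower by the quasi-likelihood test of edgeR, adjusted after Benjamini and Hochberg over every gene tested. Another 3 were higher, and 7 did not pass an adjusted p of 0.05. Over all 16993 tested genes, 40.8% were called lower and 39.2% higher, 80% in either direction. The median log2 fold change of the 75 genes was -2.08, against -0.02 for all tested genes. A fall of at least 2-fold was called for 57 of the 75 and for 23.5% of all tested genes, and the 3 EVadMu libraries lay wholly below the 3 EVMu libraries for 65 of the 75 and for 41.4% of all tested genes. They lay wholly above for 3 of the 75 and for 39.4% of all tested genes.

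The filter itself favours genes that are high in one group. Counts of at least 10 in all 6 libraries were reached by 55 of the 75, of which 45 were lower, 3 higher and 7 did not pass, with a median log2 fold change of -1.85. The other 20 reached that level in all EVMu libraries and not in all EVadMu libraries, and all 20 were called lower. The 24 rows that were not tested had between 0 and 46 counts over the 6 libraries.

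**Figure D1:**
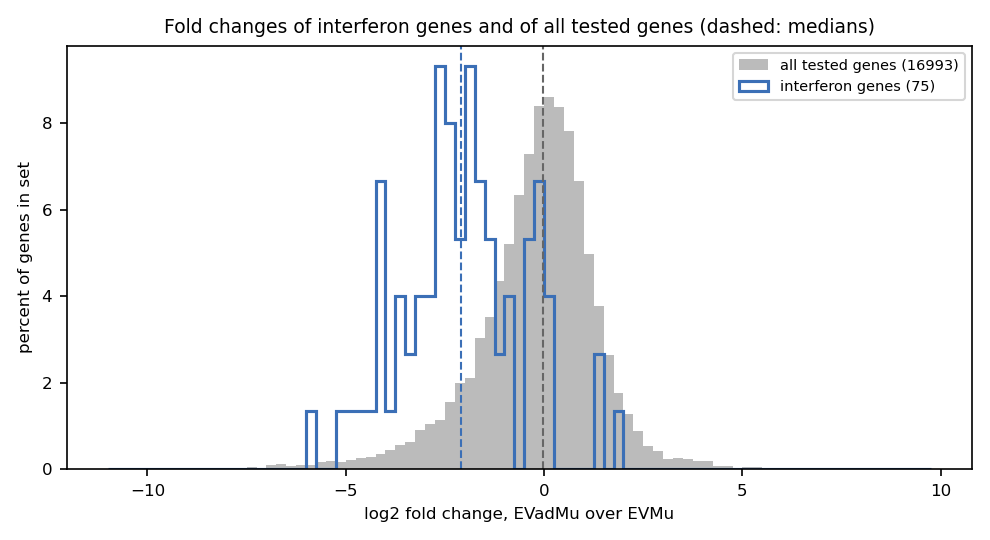
Percent of genes (vertical axis) in each interval of log2 fold change, EVadMu over EVMu (horizontal axis), for all 16993 tested genes in grey and the 75 tested interferon genes in outline, with dashed lines at the medians of -0.02 and -2.08. Most of the outline lies to the left of 0 while 3 interferon genes lie beyond 1 on the right.

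Promoter sequences are shown first, because the interferon-stimulated response element (ISRE), bound by STAT complexes with IRF9 or by IRFs, is a known control element of such genes. They are RefSeq windows of the rat build GRCr8, 250 bases before and 50 after each gene's start, matched by symbol. Both classes of gene are included: Parp14, Ifit3, Gbp2, Irf7 and Cmpk2 fell, and Rsad2, Isg20 and Isg20l2 rose. They were picked after their values had been seen. Capitals mark each match to the ISRE core GAAANNGAAA on either strand.
Parp14: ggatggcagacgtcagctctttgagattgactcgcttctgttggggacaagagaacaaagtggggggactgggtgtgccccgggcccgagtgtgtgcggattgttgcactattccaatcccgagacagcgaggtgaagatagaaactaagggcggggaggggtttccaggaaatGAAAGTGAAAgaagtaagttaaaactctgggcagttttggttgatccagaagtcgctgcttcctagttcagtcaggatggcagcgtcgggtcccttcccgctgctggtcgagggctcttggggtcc
Ifit3: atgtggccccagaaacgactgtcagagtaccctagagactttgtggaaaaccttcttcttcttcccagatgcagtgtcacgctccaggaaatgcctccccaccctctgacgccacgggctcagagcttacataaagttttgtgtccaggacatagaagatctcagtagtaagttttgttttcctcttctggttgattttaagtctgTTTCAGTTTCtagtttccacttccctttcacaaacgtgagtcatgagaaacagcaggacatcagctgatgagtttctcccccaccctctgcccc
Gbp2: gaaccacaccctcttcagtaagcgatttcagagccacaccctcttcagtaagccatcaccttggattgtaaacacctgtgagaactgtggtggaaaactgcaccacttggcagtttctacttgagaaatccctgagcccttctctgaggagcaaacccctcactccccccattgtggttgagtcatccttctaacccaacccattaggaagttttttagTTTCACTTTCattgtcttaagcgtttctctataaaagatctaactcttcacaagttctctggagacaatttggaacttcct
Irf7: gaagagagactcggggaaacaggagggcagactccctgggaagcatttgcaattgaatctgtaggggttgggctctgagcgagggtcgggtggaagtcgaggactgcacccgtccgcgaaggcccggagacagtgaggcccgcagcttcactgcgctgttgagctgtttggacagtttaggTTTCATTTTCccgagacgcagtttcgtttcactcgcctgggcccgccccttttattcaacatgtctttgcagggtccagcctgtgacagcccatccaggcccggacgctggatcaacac
Cmpk2: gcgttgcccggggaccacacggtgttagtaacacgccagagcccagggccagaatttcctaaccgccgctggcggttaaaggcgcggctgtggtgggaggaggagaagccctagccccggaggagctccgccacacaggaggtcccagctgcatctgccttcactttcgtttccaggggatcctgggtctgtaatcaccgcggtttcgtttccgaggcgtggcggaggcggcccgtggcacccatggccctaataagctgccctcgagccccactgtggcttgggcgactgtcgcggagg
Rsad2: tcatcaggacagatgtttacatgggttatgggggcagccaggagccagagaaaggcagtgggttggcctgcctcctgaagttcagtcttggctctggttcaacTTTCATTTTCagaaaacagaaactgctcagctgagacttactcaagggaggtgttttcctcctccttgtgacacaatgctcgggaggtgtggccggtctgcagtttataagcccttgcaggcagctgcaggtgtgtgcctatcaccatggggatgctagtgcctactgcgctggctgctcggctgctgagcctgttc
Isg20: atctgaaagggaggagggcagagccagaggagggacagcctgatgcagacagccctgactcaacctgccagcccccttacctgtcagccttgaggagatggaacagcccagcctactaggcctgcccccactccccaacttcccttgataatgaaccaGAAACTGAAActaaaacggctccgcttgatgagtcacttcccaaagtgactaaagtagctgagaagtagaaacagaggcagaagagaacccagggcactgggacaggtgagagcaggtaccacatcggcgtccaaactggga
Isg20l2: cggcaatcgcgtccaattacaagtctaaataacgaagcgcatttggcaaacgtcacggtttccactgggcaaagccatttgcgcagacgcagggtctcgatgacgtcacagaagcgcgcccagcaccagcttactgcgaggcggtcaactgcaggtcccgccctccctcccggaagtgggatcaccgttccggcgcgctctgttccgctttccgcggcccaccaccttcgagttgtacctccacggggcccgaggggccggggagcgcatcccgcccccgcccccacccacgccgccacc
In GRCr8 the windows are chr11:78407884-78408183 (plus strand) for Parp14, chr1:241527076-241527375 (plus strand) for Ifit3, chr2:234005477-234005776 (plus strand) for Gbp2 and chr1:205799974-205800273 (minus strand) for Irf7. Those of the other four are chr6:48802600-48802899 (plus strand) for Cmpk2, chr6:48788071-48788370 (minus strand) for Rsad2, chr1:142239809-142240108 (plus strand) for Isg20 and chr2:175694388-175694687 (plus strand) for Isg20l2. The core is thus printed in 4 of the 5 promoters of genes that fell and in 2 of the 3 of genes that rose.

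Of the 99 genes, 55 had a window in the table, 57 windows in all, and 28 windows (49.1%) held the ISRE core, against 1312 of all 33469 windows (3.92%). These 28 windows carried 35 matches, all of them within 200 bases before the start or after it, and 7 genes had 2 or more matches. The gamma-activated site TTCNNNGAA, bound by STAT dimers, was found in 17 windows (29.8%) against 8.87% of all windows. Both motifs were present in 10 of the windows, and in 1, that of Bst2, they overlapped. A match is a string of letters in this window and not a measured binding site.

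Tested genes without a window in the table are left out of this comparison. Among the tested interferon genes with a window, the 24 with the ISRE core had 21 lower and 2 higher and a median log2 fold change of -2.50. The 20 without it had 14 lower and 1 higher and a median of -0.90. Some of both passed the filter through EVMu only, among them Apol9a, Gbp4, Gbp5 and Ifi44 with the core and Irf8 and Ifi47 without it. Among tested genes outside the interferon set, 43.8% of the 317 with the core were called lower and 42.6% higher, beside 42.5% and 41.2% of the 10696 without it. These shares are descriptions, and the difference between the interferon genes with and without the core was not tested.

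Of the 4 receptor chains, 2 were called lower, neither by 2-fold, which is near the 40.8% of all tested genes called lower. Ifnar1, the signalling chain of the type I receptor, stood at 121, 110.3 and 112 CPM in the EVMu libraries and 82.04, 82.3 and 87.4 CPM in the EVadMu libraries, a log2 fold change of -0.45 ± 0.048 (SE; adjusted p = 1.87e-10). Its 3 EVadMu libraries lay below all EVMu libraries. Ifnar2, the ligand-binding chain of that receptor, stood at 26.4, 33.97 and 29.7 CPM in the EVMu libraries and 26.9, 27.5 and 26.5 CPM in the EVadMu libraries. Here the groups overlapped, and the log2 fold change of -0.16 ± 0.083 did not pass (adjusted p = 0.0846). Without EVMu replicate 1, the lowest EVMu library for this gene, it was -0.25 with an adjusted p of 0.0106, and without scaling factors it was -0.27 with 0.00417.

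Ifngr1, the ligand-binding chain of the interferon-gamma receptor, stood at 51.5, 48.8 and 50.7 CPM in the EVMu libraries and 29.9, 31.3 and 27.95 CPM in the EVadMu libraries. All EVadMu libraries were below all EVMu libraries, with a log2 fold change of -0.76 ± 0.066 (adjusted p = 9.89e-13). Its partner chain gene Ifngr2 stood at 49.4, 51.9 and 53.4 CPM in the EVMu libraries and 52.2, 54.4 and 54.3 CPM in the EVadMu libraries, the groups overlapped, and the change of 0.06 ± 0.057 did not pass (adjusted p = 0.364; -0.06 without scaling factors). For both receptors 1 chain was thus called lower and the other was not called, a share near that of all tested genes (40.8% lower).

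Stat2, a signal transducer of the type I receptor, stood at 88.8, 88.7 and 86.3 CPM in the EVMu libraries and 21.3, 23.3 and 20.4 CPM in the EVadMu libraries. Each EVadMu value was below each EVMu value, 4.06-fold lower by the group means, with -2.02 ± 0.061 on the log2 scale (adjusted p = 1e-25).

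IRF genes ranged from a strong fall, through moderate falls, to little change. Irf7, which amplifies type I interferon production and is itself interferon-induced, stood at 10.9, 10.1 and 10.9 CPM in the EVMu libraries and 1.74, 1.32 and 1.08 CPM in the EVadMu libraries. Every EVadMu library lay below every EVMu library, 7.71-fold lower, with a log2 fold change of -2.94 ± 0.20 (adjusted p = 1.29e-15). Irf8, a factor of the myeloid lineage, was low throughout at 1.55, 1.56 and 2.04 CPM in the EVMu libraries and 0.496, 0.252 and 0.885 CPM in the EVadMu libraries. Its groups did not overlap, although EVadMu replicates differed among themselves, and the log2 fold change was -1.65 ± 0.41 (adjusted p = 0.00048). Irf8 passed the filter through EVMu only, which favours a call of lower.

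Irf1, a factor that drives many gamma-responsive genes, stood at 28.3, 30.9 and 28.7 CPM in the EVMu libraries and 15.4, 12.9 and 16.1 CPM in the EVadMu libraries. Irf9, the DNA-contacting partner of STAT2, stood at 36.3, 37.02 and 35.6 CPM in the EVMu libraries and 21.7, 19.3 and 20.9 CPM in the EVadMu libraries. Both were lower in all EVadMu libraries than in any EVMu library, by log2 fold changes of -0.98 ± 0.093 and -0.82 ± 0.077 (adjusted p = 1.12e-11 and 1.15e-11).

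Irf2, an antagonist of IRF1 on shared sites, stood at 27.1, 25.02 and 28.1 CPM in the EVMu libraries and 23.01, 22.3 and 23.5 CPM in the EVadMu libraries, and its groups did not overlap. The log2 fold change of -0.22 ± 0.082 passed (adjusted p = 0.0143), but not without EVMu replicate 3 (0.0675), without EVadMu replicate 2 (0.0598) or in DESeq2 (0.0578). Irf3, the constitutive factor activated by nucleic acid sensing, stood at 29.1, 25.99 and 22.6 CPM in the EVMu libraries and 22.5, 24.7 and 20.6 CPM in the EVadMu libraries. Its groups overlapped and the change of -0.19 ± 0.093 did not pass (adjusted p = 0.0552), while it did without EVMu replicate 3 (0.00832), without EVadMu replicate 2 (0.0326) and with the replicate number as a block (0.0441).

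Irf5, which acts downstream of Toll-like receptors, stood at 4.703, 5.64 and 4.76 CPM in the EVMu libraries and 4.53, 4.91 and 5.63 CPM in the EVadMu libraries. The groups overlapped, and the log2 fold change of -0.00 ± 0.18 did not pass and took either sign across settings. Irf4, the lymphocyte factor, had too few counts to be tested. Of the 7 tested IRFs described here, 5 were called lower and 2 did not pass, where 40.8% of all tested genes were called lower.

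**Figure D2:**
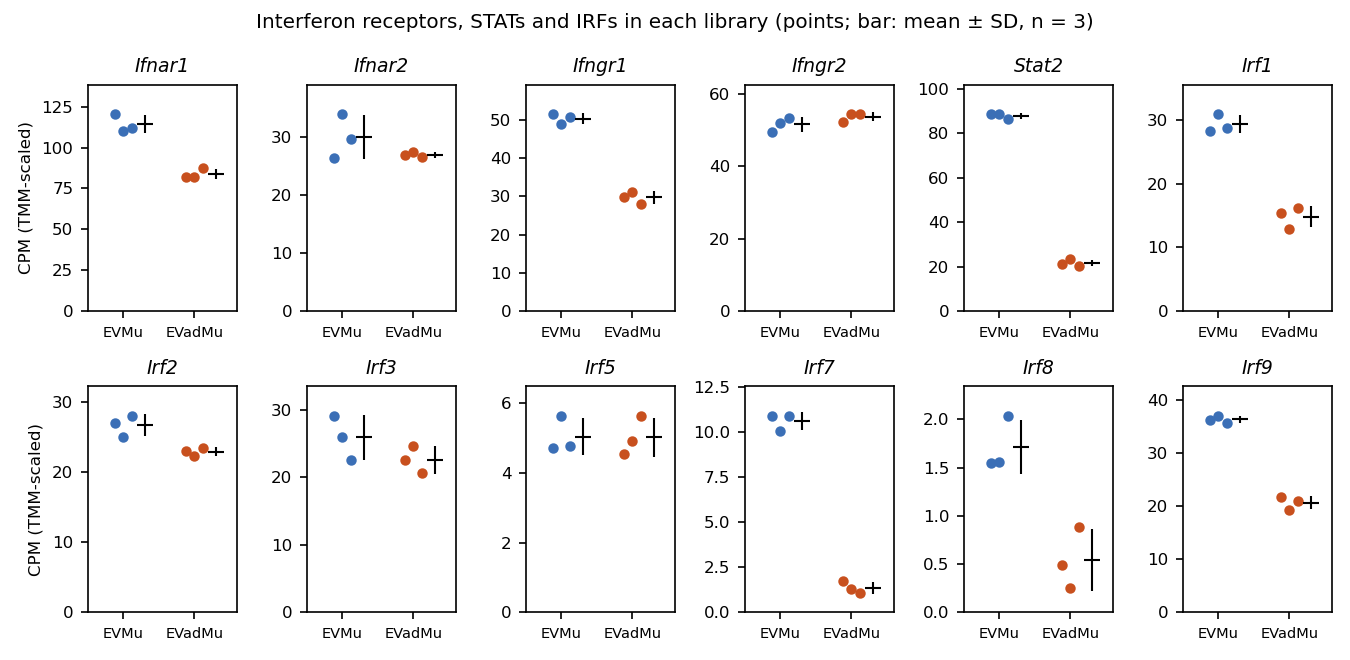
Level in CPM (vertical axis, from 0, scaled by TMM factors) of 4 receptor genes, Stat2 and 7 IRF genes in each EVMu and EVadMu library (points), with the mean ± SD of 3 libraries beside them. The EVadMu points of Stat2 and Irf7 lie far below those of EVMu, while the points of Ifnar2, Ifngr2, Irf3 and Irf5 overlap.

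All 4 tested sensors of foreign nucleic acid were lower, where 40.8% of all tested genes were called lower. Ifih1, which encodes the long double-stranded RNA sensor MDA5, stood at 25.5, 32.5 and 31.7 CPM in the EVMu libraries and 2.23, 2.01 and 2.66 CPM in the EVadMu libraries. The groups did not overlap, 13-fold lower in EVadMu, with a log2 fold change of -3.70 ± 0.14 (adjusted p = 9.86e-23). Ddx58, encoding the RNA sensor RIG-I, stood at 71.5, 59.6 and 68.2 CPM in the EVMu libraries and 16.5, 15.1 and 15.4 CPM in the EVadMu libraries, 4.24-fold lower with the groups apart (-2.08 ± 0.076; adjusted p = 2.13e-23).

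Dhx58, encoding their regulator LGP2, stood at 6.06, 6.16 and 8.498 CPM in the EVMu libraries and 1.302, 2.14 and 0.696 CPM in the EVadMu libraries. The EVadMu libraries were all lower, at -2.32 ± 0.26 on the log2 scale, though reads of the overlapping antisense gene Dhx58os, itself too low to test, cannot be told apart from those of Dhx58 without strand. Zbp1, a sensor of left-handed nucleic acid that can trigger necroptosis, stood at 9.53, 11.02 and 8.67 CPM in the EVMu libraries and 2.73, 2.96 and 3.73 CPM in the EVadMu libraries, again without overlap (-1.63 ± 0.17; adjusted p = 1.96e-10).

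Oligoadenylate synthetases activate the RNA-degrading enzyme RNase L. Of their 12 rows, 5 were called lower, 1 did not pass and 6 were not tested, where 40.8% of all tested genes were called lower. Counts of at least 10 in every library were reached by 4 of the tested rows, of which 3 were lower. Oasl1 and Oas2 passed the filter through EVMu only, which favours a call of lower. Oasl2, a family member with a ubiquitin-like tail, stood at 66.3, 63.01 and 65.7 CPM in the EVMu libraries and 4.71, 6.29 and 6.13 CPM in the EVadMu libraries. That is 11.4-fold lower with no overlap (-3.51 ± 0.090; adjusted p = 6.14e-28). Oas1b stood at 5.61, 4.73 and 5.61 CPM in the EVMu libraries and 2.48, 2.14 and 2.21 CPM in the EVadMu libraries. Oas1c stood at 3.35, 4.02 and 3.74 CPM in the EVMu libraries and 1.798, 1.195 and 1.71 CPM in the EVadMu libraries. Oasl1 stood at 3.09, 2.85 and 1.7 CPM in the EVMu libraries and 0.6201, 0.818 and 0.569 CPM in the EVadMu libraries. In each of these the EVadMu libraries were lower, with log2 fold changes of -1.22 ± 0.21, -1.24 ± 0.26 and -1.91 ± 0.36.

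Oas1a was the OAS gene that did not pass, at 5.09, 4.21 and 3.74 CPM in the EVMu libraries and 4.34, 4.72 and 4.62 CPM in the EVadMu libraries. Its groups overlapped and the change of 0.07 ± 0.19 did not pass (adjusted p = 0.735; -0.04 without scaling factors and without EVMu replicate 3), although its promoter window holds 2 overlapping ISRE cores. Oas2 fell from 2.58, 3.76 and 2.89 CPM to 0.124, 0.126 and 0 CPM, which is 4 counts over the EVadMu group (-5.07 ± 0.51). Oas1e, not tested, had 40 counts over the EVMu libraries and 0 in EVadMu, at least 13.1-fold lower taking 3 counts in the EVadMu group as the floor. Oas1d, Oas1g, Oas1h and Oas3 were too low to test, and Oas1f had no counts.

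All 6 IFIT genes were called lower, where 40.8% of all tested genes were. Of the 6, 3 passed the filter through EVMu only, namely Ifit3b, Ifit1bl1 and Ifit1bl2. IFIT proteins bind RNA that lacks the cap marks of the cell's own mRNA and block its translation. Ifit3 stood at 41.4, 32.2 and 36.9 CPM in the EVMu libraries and 0.992, 1.13 and 1.39 CPM in the EVadMu libraries, 31.4-fold lower (-4.97 ± 0.15; adjusted p = 1.32e-25). Its copy Ifit3b stood at 15.8, 12.97 and 15.01 CPM in the EVMu libraries and 0.186, 0.252 and 0.316 CPM in the EVadMu libraries, 58.1-fold lower (-5.82 ± 0.25), the lowest log2 fold change of the 75 tested genes. For both genes every EVadMu library lay below every EVMu library.

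Ifit1 stood at 24.6, 20.4 and 22.4 CPM in the EVMu libraries and 3.597, 2.96 and 3.92 CPM in the EVadMu libraries. Ifit2 stood at 39.9, 42.8 and 41.8 CPM in the EVMu libraries and 7.32, 8.24 and 10.5 CPM in the EVadMu libraries. Both were apart between groups, 6.44-fold and 4.78-fold lower (-2.68 ± 0.14 and -2.26 ± 0.099). The remaining pair, Ifit1bl1 and Ifit1bl2, had log2 fold changes of -2.59 and -1.73. Because near-identical copies can split or share reads, the family was also summed: the 6 rows together stood at 126, 112 and 121 CPM in the EVMu libraries and 12.7, 13.5 and 17.4 CPM in the EVadMu libraries, 8.26-fold lower (-3.05 ± 0.074; adjusted p = 9.18e-27).

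IFITM proteins sit in endosomal and plasma membranes and hinder fusion of viral envelopes. Ifitm3 stood at 126, 126 and 131 CPM in the EVMu libraries and 23.6, 23.02 and 24.9 CPM in the EVadMu libraries. Ifitm2 stood at 34.5, 32.2 and 33.1 CPM in the EVMu libraries and 11.9, 13.96 and 15.8 CPM in the EVadMu libraries. In both, all EVadMu libraries were below all EVMu libraries, with log2 fold changes of -2.42 ± 0.055 and -1.26 ± 0.093 (adjusted p = 2.19e-29 and 1.64e-14). Ifitm10, a divergent relative, stood at 7.22, 8.56 and 8.895 CPM in the EVMu libraries and 7.32, 5.22 and 6.45 CPM in the EVadMu libraries and overlapped. Its change of -0.38 ± 0.16 passed (adjusted p = 0.0274), but not without EVMu replicate 2 (0.0653), EVMu replicate 3 (0.108) or EVadMu replicate 2 (0.172), or in DESeq2 (0.0766). Ifitm1, Ifitm5, Ifitm6 and Ifitm7 were not tested.

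Guanylate-binding proteins are large GTPases that assemble on vacuoles and bacteria after interferon-gamma. Over all tested genes 40.8% were called lower, and in this family all 7 tested genes were. Of these, Gbp2, Gbp3 and Gbp7 reached 10 counts in every library, and the other 4 passed the filter through EVMu, where they are high. Gbp2 stood at 50.3, 54.1 and 49.9 CPM in the EVMu libraries and 4.71, 4.65 and 4.62 CPM in the EVadMu libraries. Gbp3 stood at 41.5, 38.5 and 41.5 CPM in the EVMu libraries and 1.55, 2.39 and 3.04 CPM in the EVadMu libraries. The groups were far apart, 11-fold and 17.4-fold lower (-3.46 ± 0.095 and -4.12 ± 0.13; adjusted p = 5.9e-27 and 4.05e-25).

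Gbp7 stood at 36.7, 42.4 and 41.3 CPM in the EVMu libraries and 3.54, 3.9 and 3.42 CPM in the EVadMu libraries. Gbp9 stood at 16.2, 12.8 and 13.9 CPM in the EVMu libraries and 0.372, 1.07 and 0.949 CPM in the EVadMu libraries, also without overlap (-3.47 ± 0.11 and -4.16 ± 0.22). Gbp4, Gbp5 and Gbp6 had log2 fold changes of -2.13, -3.55 and -4.47. Summed over its 12 rows, the family went from 164 ± 2.53 to 13.3 ± 0.713 CPM (SD, n = 3), 12.3-fold lower (-3.62 ± 0.058). Gbp8, Gbp10, Gbp11, Gbp2b and the pseudogene Gbp2-ps were not tested. Gbp11 had 33 counts over the EVMu libraries and 4 over EVadMu, while Gbp2b had 1 and 9.

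Immunity-related GTPases, which act on pathogen vacuoles and autophagy in rodents, were all called lower, where 40.8% of all tested genes were. Irgm2 stood at 31.4, 31.6 and 28.95 CPM in the EVMu libraries and 1.49, 2.33 and 1.58 CPM in the EVadMu libraries, 17-fold lower with no overlap (-4.08 ± 0.14; adjusted p = 5.75e-24). Irgm1 stood at 26.4, 23.1 and 27.9 CPM in the EVMu libraries and 6.33, 5.54 and 7.65 CPM in the EVadMu libraries. Igtp stood at 19.9, 22.4 and 22.4 CPM in the EVMu libraries and 9.05, 7.99 and 9.49 CPM in the EVadMu libraries. Iigp1 stood at 3.61, 3.695 and 3.68 CPM in the EVMu libraries and 0.806, 0.629 and 0.443 CPM in the EVadMu libraries. None of these overlapped between groups, and their log2 fold changes were -1.99 ± 0.12, -1.29 ± 0.11 and -2.53 ± 0.31. Iigp1 passed the filter through EVMu only. In the rat gene table Irgm2 and Igtp are neighbours, and both were called lower.

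The dynamin-like antiviral GTPase genes were low but apart between groups. Mx1 stood at 3.29, 3.11 and 2.38 CPM in the EVMu libraries and 1.302, 0.692 and 0.696 CPM in the EVadMu libraries. Mx2 stood at 3.74, 4.54 and 5.21 CPM in the EVMu libraries and 1.36, 1.76 and 2.47 CPM in the EVadMu libraries. Their log2 fold changes were -1.69 ± 0.32 and -1.27 ± 0.25 (adjusted p = 1.4e-05 and 1.84e-05).

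The p200 (Ifi200) family encodes DNA-binding proteins and expanded in mice, so reads may be shared among its copies. All 7 tested rows were called lower, where 40.8% of all tested genes were. Of the 7, 4 passed the filter through EVMu only. Ifi204 stood at 8.63, 9.79 and 7.71 CPM in the EVMu libraries and 1.61, 2.52 and 2.85 CPM in the EVadMu libraries. Ifi203 stood at 8.12, 8.04 and 7.14 CPM in the EVMu libraries and 2.79, 2.33 and 2.97 CPM in the EVadMu libraries. Both were lower in every EVadMu library than in any EVMu library. Ifi207 stood at 5.67, 5.32 and 4.53 CPM in the EVMu libraries and 1.67, 1.45 and 0.885 CPM in the EVadMu libraries. Ifi211 stood at 3.22, 4.08 and 3.68 CPM in the EVMu libraries and 0.868, 0.566 and 0.632 CPM in the EVadMu libraries. No library of one group overlapped the other in any of the 7. The 12 rows summed to 30.02, 32.8 and 28.95 CPM in the EVMu libraries and 7.96, 7.74 and 8.68 CPM in the EVadMu libraries, 3.77-fold lower (-1.91 ± 0.10; adjusted p = 1.13e-17).

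The ubiquitin-like protein ISG15 and its protease USP18, a brake on the type I receptor, fell together. Isg15 stood at 29.4, 28.5 and 28.2 CPM in the EVMu libraries and 3.47, 3.46 and 3.54 CPM in the EVadMu libraries, 8.22-fold lower (-3.04 ± 0.12; adjusted p = 2.06e-22). Usp18 stood at 11.7, 13.4 and 11.2 CPM in the EVMu libraries and 2.85, 1.38 and 2.403 CPM in the EVadMu libraries, 5.48-fold lower (-2.45 ± 0.19; adjusted p = 4.51e-14). Neither gene overlapped between groups.

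The ADP-ribosyltransferase genes of the interferon response also fell. Parp14 stood at 111, 116 and 112 CPM in the EVMu libraries and 4.403, 4.15 and 4.36 CPM in the EVadMu libraries, 26.3-fold lower (-4.71 ± 0.076) and with the smallest adjusted p of the 75 genes (9.85e-34). Parp9 and Dtx3l are neighbours in the rat table, and their products form a complex. Parp9 stood at 31.4, 30.7 and 33.1 CPM in the EVMu libraries and 5.46, 6.42 and 5.76 CPM in the EVadMu libraries. Dtx3l stood at 36.4, 32.5 and 32.8 CPM in the EVMu libraries and 5.64, 6.04 and 4.36 CPM in the EVadMu libraries. Their log2 fold changes were -2.43 ± 0.11 and -2.66 ± 0.11. Parp12 stood at 50.4, 51.9 and 52.9 CPM in the EVMu libraries and 11.9, 12.4 and 16.7 CPM in the EVadMu libraries (-1.92 ± 0.088). The groups of all 4 genes were apart.

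Of the Apol9 pair, apolipoprotein L genes, Apol9a stood at 2.96, 2.66 and 4.25 CPM in the EVMu libraries and 0.434, 0.4403 and 0.696 CPM in the EVadMu libraries. Apol9b stood at 1.74, 0.713 and 2.44 CPM in the EVMu libraries and 0.06201, 0.0629 and 0.1897 CPM in the EVadMu libraries. Neither overlapped between groups. The pair was lower at log2 fold changes of -2.64 ± 0.34 for Apol9a and -3.88 ± 0.60 for Apol9b, and their shared reads are uncertain. Both passed the filter through EVMu only, where they are high, which favours a call of lower. Summed, they went from 4.93 ± 1.68 to 0.627 ± 0.219 CPM. In the Ifi27 group, Ifi27l2a stood at 14.8, 13.6 and 13.5 CPM in the EVMu libraries and 0.496, 1.01 and 1.01 CPM in the EVadMu libraries, 16.7-fold lower (-4.05 ± 0.21). Ifi27l2a also passed the filter through EVMu only. Ifi27l2b, not tested, had 12 counts over the EVMu libraries and 34 over EVadMu, with every EVadMu library above every EVMu library. Ifi27, a mitochondrial protein gene, was called lower by under 2-fold, at 146, 143 and 144 CPM in the EVMu libraries and 129, 129 and 128 CPM in the EVadMu libraries (-0.16 ± 0.040; adjusted p = 0.000386), although its libraries did not overlap. Its promoter window holds 2 ISRE cores.

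Among the remaining genes, Samhd1, which depletes deoxynucleotides and so limits retroviruses, stood at 48.4, 52.3 and 49.7 CPM in the EVMu libraries and 13.2, 14.03 and 14.4 CPM in the EVadMu libraries (-1.85 ± 0.077). Xaf1, a pro-apoptotic antagonist of XIAP, stood at 38.01, 30.99 and 30.7 CPM in the EVMu libraries and 6.08, 8.55 and 7.15 CPM in the EVadMu libraries (-2.19 ± 0.11). Both were apart between groups. Rtp4, Ifi35, Ifi44 and Ifi47 were lower too, with log2 fold changes of -2.83, -1.45, -2.58 and -4.14. Of these, Ifi44 and Ifi47 passed the filter through EVMu only.

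Bst2, the tether that holds budding virions on the cell surface, was called lower by under 2-fold, at 56.7, 56.8 and 57.1 CPM in the EVMu libraries and 42.1, 44.8 and 41.6 CPM in the EVadMu libraries (-0.41 ± 0.058; adjusted p = 8.02e-08). Ifi30, a lysosomal thiol reductase used in antigen processing, stood at 16.2, 14.4 and 14.4 CPM in the EVMu libraries and 16.5, 15.98 and 16.3 CPM in the EVadMu libraries. Its groups overlapped and the change of 0.12 ± 0.10 did not pass (adjusted p = 0.285).

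**Figure D3:**
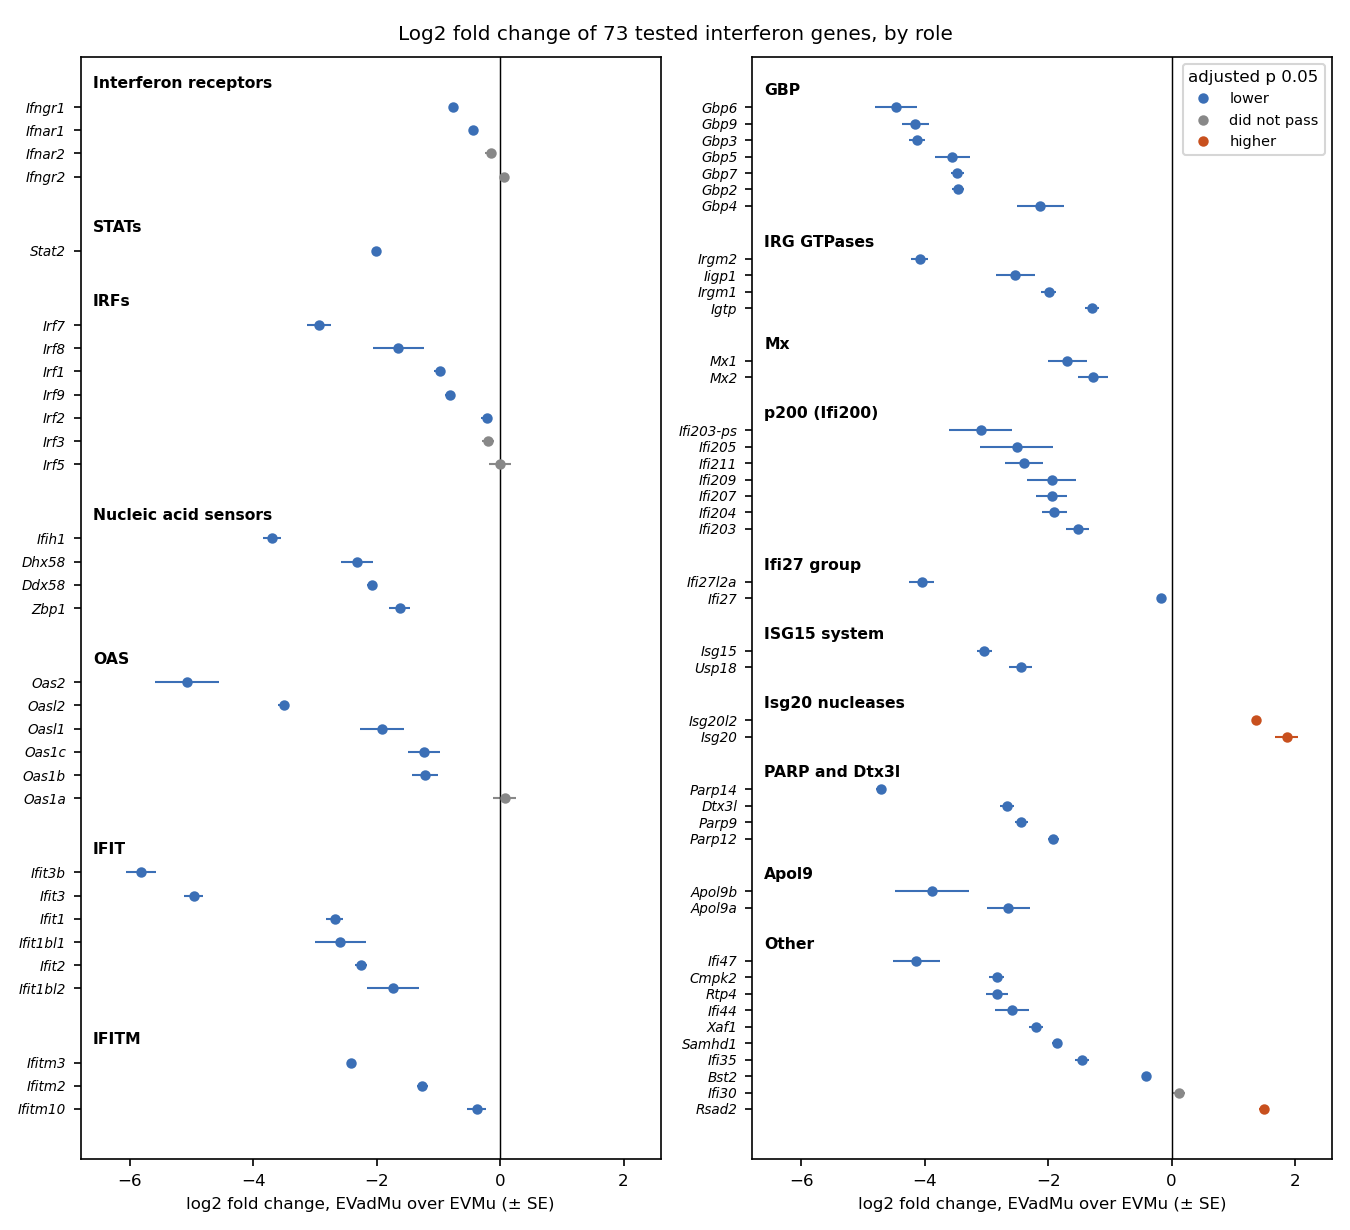
Log2 fold change, EVadMu over EVMu, with its SE (horizontal axis) for 73 tested genes, grouped by role. Blue points passed as lower (64), red points as higher (3) and grey points did not pass (6). The red points are Isg20l2, Isg20 and Rsad2.

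Rsad2, Isg20 and Isg20l2 were the 3 genes that rose, where 39.2% of all tested genes were called higher. Rsad2 encodes viperin, which makes a chain-terminating nucleotide that stops viral RNA synthesis. It stood at 14.2, 12.8 and 15.5 CPM in the EVMu libraries and 40.9, 37.7 and 41.2 CPM in the EVadMu libraries. Every EVadMu library exceeded every EVMu library, 2.83-fold higher (1.49 ± 0.085; adjusted p = 1.13e-17).

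Cmpk2, a nucleotide kinase gene that neighbours Rsad2 in the rat table, moved the other way. It stood at 30.5, 32.6 and 29.7 CPM in the EVMu libraries and 3.41, 5.095 and 4.49 CPM in the EVadMu libraries, 7.14-fold lower (-2.83 ± 0.12; adjusted p = 2.45e-21). The pair thus differed in direction in all 3 EVadMu libraries, and of the 2 printed windows only that of Rsad2 holds an exact match to the ISRE core. The Cmpk2 window holds a near match, cttcactttc, which the exact search does not count.

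Isg20, an exonuclease that degrades single-stranded RNA, stood at 3.35, 2.07 and 2.096 CPM in the EVMu libraries and 9.49, 8.81 and 9.04 CPM in the EVadMu libraries, 3.63-fold higher with the groups apart (1.87 ± 0.19; adjusted p = 5.69e-11). Isg20l2 matched the name pattern as a paralog, and its product is known for processing ribosomal RNA in the nucleolus. It stood at 23.96, 24.6 and 23.5 CPM in the EVMu libraries and 59.5, 61.2 and 65.1 CPM in the EVadMu libraries, 2.58-fold higher, also apart (1.37 ± 0.065; adjusted p = 5.78e-20).

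**Figure D4:**
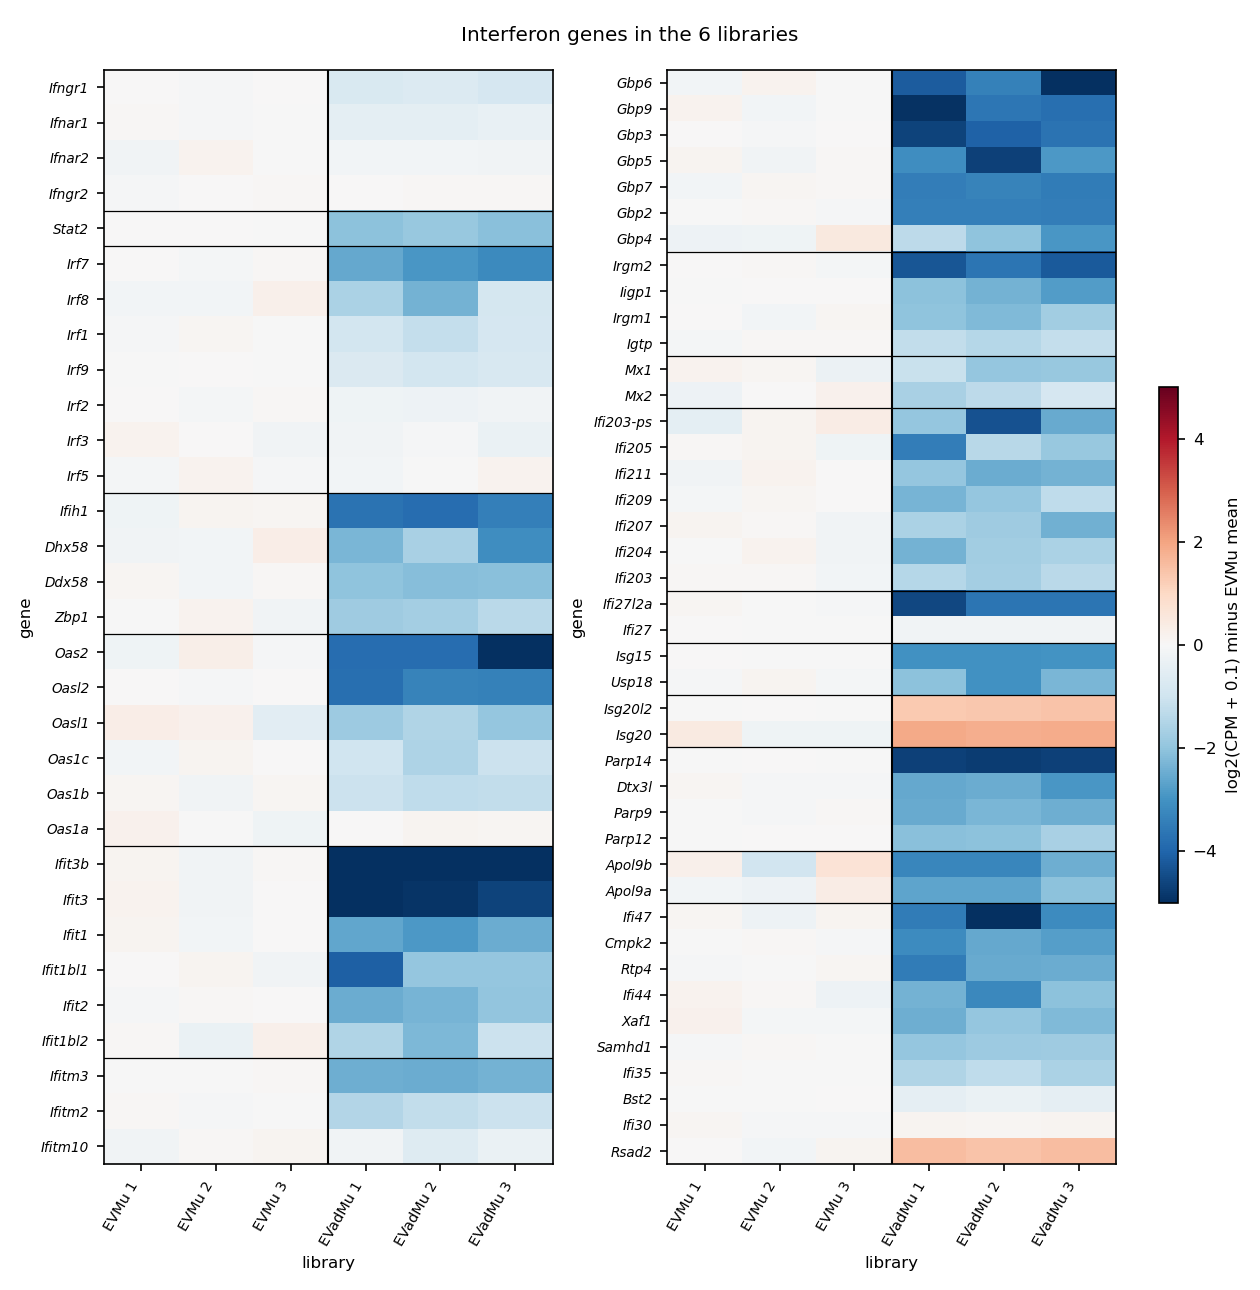
Colour gives log2(CPM + 0.1) minus the EVMu mean for each of 73 tested genes (rows, in the order of roles) in each of the 6 libraries (columns), with colours saturated at 5 in either direction. The 3 EVMu columns are near 0 and the 3 EVadMu columns are blue in most rows and red for Rsad2, Isg20 and Isg20l2.

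The genes were also divided by whether a rat gene carries the same symbol. Of the 57 tested genes whose symbol is in the rat table, 47 were lower and 3 higher, beside 40.8% and 39.2% of all tested genes. Among the 57, 8 passed the filter through EVMu only. The 18 tested genes whose symbol is not in the rat table were called lower, but 12 of them passed the filter through EVMu only. The other 6, among them Ddx58, Irgm1 and Ifi204, had at least 10 counts in every library.

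Interferon ligand genes were at or near 0 counts. None of the 21 ligand genes looked for passed the filter on low counts, 10 of them had no counts at all, and Ifnb1 was among these. A count of 0 allows up to 0.0617 CPM over the EVMu group and 0.0627 CPM over the EVadMu group, which covers counting error only. Summed over the ligands there were 0, 4 and 7 counts in EVMu replicates 1 to 3 and 12, 10 and 22 in EVadMu. These sums did not overlap, and their difference was not tested.

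Of the signalling genes outside the name pattern, 13 of 18 tested were lower and 4 higher, beside 40.8% and 39.2% of all tested genes, with a median log2 fold change of -0.32. The kinase genes Jak1, Jak2 and Tyk2 fell by 0.31, 0.34 and 0.76 on the log2 scale. Stat5b, a growth hormone responder, fell by 0.69 and the phosphatase gene Ptpn11 by 0.44. The STAT inhibitor genes Pias1 and Pias3 were also called lower, with log2 fold changes of -0.30 and -0.60. So were the phosphatase genes Ptpn1 (-0.31) and Ptpn6 (-2.98), of which Ptpn6 passed the filter through EVMu only. Those called higher were Ptpn2, a phosphatase that acts on JAK kinases, which rose from 15.5 ± 0.811 to 54.6 ± 6.2 CPM (1.81 ± 0.082), the STAT inhibitor genes Pias4 (1.63 ± 0.054) and Pias2 (0.26 ± 0.067), and the interleukin-4 responder Stat6 (0.17 ± 0.049), whose call was lost without scaling factors (adjusted p = 0.31).

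The SOCS genes and Cish encode feedback inhibitors of cytokine receptors. Of 8 tested, 5 were called higher and 1, Socs5, lower (-0.69 ± 0.057), beside 39.2% and 40.8% of all tested genes. The counts were 2 higher and 2 lower without scaling factors and 3 higher without EVMu replicate 2. Socs1, the main inhibitor of interferon receptors, stood at 3.67, 2.14 and 3.23 CPM in the EVMu libraries and 4.16, 2.83 and 3.35 CPM in the EVadMu libraries, with overlap, and its change of 0.19 ± 0.24 did not pass (adjusted p = 0.463). Socs3 was at -0.17 ± 0.087 and did not pass either. Socs6 rose from 23.5 ± 1.96 to 66.6 ± 3.03 CPM, and Socs4 and Socs7 rose by 0.23 and 0.25 on the log2 scale.

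Of 22 tested genes of nucleic acid sensing and its adaptors, 13 were lower and 7 higher, beside 40.8% and 39.2% of all tested genes. Tlr3, the endosomal double-stranded RNA receptor, fell from 18.4 ± 0.83 to 2.27 ± 1 CPM (-3.01 ± 0.18), and the RIG-I ubiquitin ligase gene Trim25 fell from 79.4 ± 2.18 to 17.8 ± 0.389 CPM (-2.15 ± 0.063). Cgas and Sting1, sensor and adaptor of cytosolic DNA, had log2 fold changes of -1.45 and -2.17, while Mavs, the mitochondrial adaptor of RNA sensors, was at -0.07 and did not pass. The ubiquitin ligase gene Traf6 rose from 31.98 ± 0.711 to 93.4 ± 3.85 CPM and the kinase gene Riok3 from 154 ± 1.93 to 327 ± 10.1 CPM. The kinase gene Tbk1 and the adaptor genes Myd88, Ticam1, Tank and Azi2 rose by 0.47, 0.71, 0.56, 0.51 and 0.44 on the log2 scale.

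Among 55 further interferon-inducible genes tested, 37 were lower and 11 higher, beside the same 40.8% and 39.2%, with a median of -1.31. Slfn9, of the Schlafen family, fell from 63.9 ± 2.78 to 0.502 ± 0.254 CPM (-6.97 ± 0.15 on the log2 scale). The galectin-binding glycoprotein gene Lgals3bp fell from 124 ± 2.99 to 20.4 ± 1.43 CPM, the galectin gene Lgals9 from 73.8 ± 1.52 to 13.1 ± 1.09 CPM and the RNA-binding helicase gene Znfx1 from 135 ± 2.77 to 47.7 ± 1.01 CPM. Eif2ak2, which encodes the translation-blocking kinase PKR, had a log2 fold change of -2.80, and the immunoproteasome genes Psmb8 and Psmb9 had -2.84 and -4.84. Slfn9 and Psmb9 passed the filter through EVMu only, which favours a call of lower. So did Ddx60, Sp100, Trim14, Trim30a, Trim30d, Phf11d and Slfn2, all called lower. Ccl5, called higher, passed it through EVadMu only.

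Of the 11 that rose, Tent5a, Gch1 and Daxx had the largest log2 fold changes with 1.78 ± 0.072, 1.49 ± 0.13 and 1.31 ± 0.060. Gch1 makes the cofactor tetrahydrobiopterin and Daxx is a histone chaperone. The antigen presentation light chain gene B2m rose from 400.1 ± 8.32 to 546 ± 23.7 CPM (0.45 ± 0.032), and the antiviral zinc finger gene Zc3hav1 from 121 ± 5.23 to 209.6 ± 7.64 CPM (0.79 ± 0.041). Lap3, Ogfr, N4bp1, Trafd1 and Tor3a rose by 0.83, 0.72, 0.58, 0.58 and 0.51. The chemokine gene Ccl5 was at 1.02 ± 0.44 with overlapping groups, a call lost in 9 of the other settings, among them without EVMu replicate 1 (adjusted p = 0.119), EVMu replicate 2 (0.0923), EVadMu replicate 1 (0.0661) and EVadMu replicate 2 (0.235). Cxcl10, the classical interferon-induced chemokine, stood at 50.3, 51.3 and 51.2 CPM in the EVMu libraries and 54.2, 52.8 and 56.2 CPM in the EVadMu libraries, and its change of 0.10 ± 0.056 did not pass (adjusted p = 0.116).

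Markers of other cell types were also lower in many cases, where 40.8% of all tested genes were called lower. Macrophage and leukocyte markers were lower for 17 of 21 tested and higher for 2, with a median log2 fold change of -2.74. Of those called lower, only Csf1r, Laptm5 and Lyz2 had at least 10 counts in every library. The others passed the filter through EVMu only, which favours a call of lower and a low median. Their summed level was 198 to 206 CPM in EVMu and 206 to 216 CPM in EVadMu. Cd68 rose from 12.9 ± 1.9 to 131 ± 3.23 CPM while Lyz2 fell from 65.5 ± 2.15 to 0.879 ± 0.194 CPM. Trem2 had 94 counts over the EVMu libraries and 0 in EVadMu, and Siglech, not tested, had 4 and 0. Fibroblast markers were lower for 15 of 16, their sum going from 7980 to 8030 CPM in EVMu to 631 to 655 CPM in EVadMu, and none was at 0. Among these, Fbln1, Dpt and Lum passed the filter through EVMu only.

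Schwann and satellite glia markers were lower for 14 of 16 tested, with sums of 6490 to 6780 CPM and 2510 to 2590 CPM. Among these, Gfap and Kcnj10 passed the filter through EVMu only. Endothelial markers were lower for 9 of 10, with sums of 348 to 361 CPM and 141 to 146 CPM. Pan-neuronal markers were lower for 13 of 16, with a median of -1.04. The 99 interferon rows summed to 1980 to 2020 CPM in EVMu and 812 to 845 CPM in EVadMu. The part of these cell types in the interferon result was not tested.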

How the data were processed

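Poly(A)-selected RNA of 6 libraries was sequenced, per the labels' protocols, in which no strand-marking step appears. Tools listed in the submitters' processing notes are HISAT2, featureCounts, SAMtools and CASAVA 1.8, with the build mm39. The deposited values are raw read counts per gene, and the handling of multiply mapped reads is not given in the sources used here. Groups came from the sample titles.

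The analysis used edgeR 4.0.16 under R 4.3.3 (default expression filter with a minimum count of 10 and a minimum total of 15, TMM factors, quasi-likelihood F-test, Benjamini-Hochberg adjustment over all 16993 tested genes, threshold 0.05). The script was tested on simulated data. CPM values are TMM-scaled, errors are SDs over 3 libraries, and the SE of a log2 fold change is the model's. Alternatives used limma 3.58.1, DESeq2 1.42.0, other scaling factors and filters, a replicate block, family sums and each library left out. Where a group had no counts, the floor was 3 counts over the group. Some genes counted in the totals are not reported here by name. No gene lengths of the build were used, so levels are not compared between genes.

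The genes and lists were chosen with earlier results of these data known. Values in every library are given by default for receptors and tested STATs and IRFs, for up to 4 called genes per role with the highest mean CPM, and for genes with a mean CPM of at least 1 that rose or did not pass. Cmpk2 and Oas2 were added after their values were seen. From the other lists, up to 4 called genes with the smallest p and those against the list's direction are named, and further ones were added after their values were seen. Library totals ran from 14853115 to 17019877 counts.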

Additional observations from a re-analysis of the deposited data

How the results depend on the processing

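The counts of interferon genes called were 62 to 71 lower and 3 higher under other scaling factors, other filters, the replicate block, DESeq2 and limma-voom, and 64 to 68 lower and 3 to 4 higher with any 1 library left out. With each paralog family as 1 row, 38 of 47 tested rows were lower, fewer because fewer rows entered. The median log2 fold change of the tested interferon genes, -2.08, was -2.02 for genes with a rat symbol, -1.92 with families as 1 row, -2.14 with upper-quartile factors, -2.20 without scaling factors, -1.99 without a filter, -2.05 with the stricter filter and -2.14 to -2.04 with 1 library left out. Its SD between libraries was 0.0237, and without scaling factors the median of all tested genes lay at -0.13. Over all genes, 6557 to 6644 were called higher and 6818 to 6994 lower with 1 library left out. Irf5 turned to 0.0177 with RLE factors, 0.0174 in DESeq2 and 1e-04 with the stricter filter, and ran from -0.0818 to 0.081 with 1 library left out. Ifngr2 turned to -0.057 without scaling factors. Oas1a turned to -0.0404 there and ran from -0.0364 to 0.187 with 1 library left out. None of these passed. Of 1776 other recomputed values, 1729 kept direction and call or, for counts, stayed within 1.5 times. Of the rest, 18 lost the call, 13 gained it, 9 changed sign and 7 counts moved by over 1.5 times. Over all tested genes, same-numbered libraries of the groups did not deviate together (r = -0.010 to -0.004). Differently numbered libraries had r of -0.012 to 0.018. A correlation over all genes would miss a pairing that touches few of them, so whether libraries were paired is not settled. With the replicate block 66 interferon genes were lower and 3 higher. Causes of these changes were not tested.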
